A study of Mus musculus with 6 samples.

Results

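The mitochondrial genome carries its own small set of genes, and the 37 transcripts described here are all of them. They were taken as every row of the deposited count tables whose gene symbol starts with mt-, 37 of 55401 genes listed, and comprise 13 protein-coding genes, 2 ribosomal RNAs and 22 transfer RNAs. In GENCODE release M21 all 37 lie on the mitochondrial chromosome of the mm10 mouse genome build, and no other listed gene does. Polyadenylated RNA had been sequenced from sorted germinal centre B cells of the spleen, in 3 libraries labelled DN and 3 labelled DP. All 6 came from wild-type C57BL/6 mice that had received sheep red blood cells into the peritoneal cavity, were challenged on day 5 and were killed on day 12. The labels give neither the age of the mice nor the markers behind the names DN and DP, and do not say which mouse a library came from. The p-values below therefore measure only how these libraries vary, which may be technical variation.

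Mitochondria transcribe their circular genome from both strands into long precursor RNAs. Most tRNAs sit between the other genes, and their removal by nuclear-encoded enzymes frees the mRNAs and rRNAs, many of which then receive short poly(A) tails. The mRNAs encode core subunits of respiratory chain complexes I, III and IV and of ATP synthase, which are built together with subunits made from nuclear genes. In the annotation, 28 of the 37 genes are on the plus strand and 9 on the minus strand. The minus-strand genes are mt-Nd6, which encodes a complex I subunit, and 8 tRNAs. Counts were obtained from poly(A) RNA, so that values for tRNAs and rRNAs describe what this preparation kept of them.

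Gene counts per library ranged from 8904415 to 20538024 and were 1.88 times higher on average in DP. Levels are in CPM, counts scaled to a common library size after adjustment by TMM composition factors, with mean ± SD over n = 3 libraries. A change is the log2 ratio of DP to DN with its standard error, from edgeR's quasi-likelihood test with Benjamini-Hochberg adjustment over 11296 genes. Genes with an adjusted p under 0.05 are said to be called, to rise or to fall. A floor of 3 counts lay between 0.155 and 0.315 CPM, for counting error only. All 10 germinal centre B cell markers looked at were detected in both groups. Their summed level was 9099 to 9859 CPM in DN and 5803 to 6437 CPM in DP. Of these 10, 9 were called lower in DP and 1 higher, with a median log2 change of -0.96. Over all tested genes 37.6% were called lower and 38.3% higher.

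Several mitochondrial genes are near-identical to a stretch of mouse chromosome 1 that is annotated as a row of 7 pseudogenes, from 24611535 to 24616197 on its minus strand in mm10. Such nuclear insertions of mitochondrial DNA matter here because a read that fits 2 places equally well is commonly not counted for either gene. Over 681 aligned bases mt-Co2 was 100% identical to Gm28661, over 678 bases mt-Atp6 to Gm10925, over 783 bases mt-Co3 to Gm28437, and over 294 bases mt-Nd4l to Gm10222. The first 876 bases of mt-Nd4 matched Gm28439 without a difference. The 2 other pairs differed at a single base each. In positions counted from the 5′ end of the mitochondrial gene, mt-Nd3 and Gm28438 differed by T3C over 345 bases, and mt-Co1 and Gm29216 by A1066T over the 483 bases they share. The sequences below, from GENCODE transcripts, show these lone differences in capitals.
mt-Nd3: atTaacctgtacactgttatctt
Gm28438: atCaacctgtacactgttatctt
mt-Co1: ggaAttgttttatccaactcatcc
Gm29216: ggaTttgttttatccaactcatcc
Next comes the point where the annotated copy of mt-Nd4 ends. Capitals mark the bases held by both, and the lower-case bases of mt-Nd4 have no counterpart in Gm28439.
mt-Nd4: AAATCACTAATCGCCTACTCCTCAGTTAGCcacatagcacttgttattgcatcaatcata
Gm28439: AAATCACTAATCGCCTACTCCTCAGTTAGC

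The genes that share nearly all of their sequence with these copies had few counts, while mt-Nd4 and mt-Co1, which share a part, had many. For each gene, every window of 100 bases was compared with the annotated nuclear transcripts in which blastn had found a similar stretch. The share of windows also found there was 99.5% for mt-Co2, 99.5% for mt-Atp6, 99.9% for mt-Co3, 97.6% for mt-Nd3 and 98.5% for mt-Nd4l. It was 60.8% for mt-Nd4, 30.8% for mt-Co1 and 3.19% for mt-Nd2. It was 0 for mt-Nd1, mt-Nd5, mt-Nd6, mt-Cytb and both rRNAs. This measure counts exact matches only and leaves out long stretches that differ at scattered bases. By blastn, mt-Co1 was 97.6% identical to Gm13340 over 1545 aligned bases and mt-Nd6 93.6% identical to Gm11408 over 519. For mt-Cytb it was 92.9% with Gm11410 over 1142 bases, and for mt-Nd5 92.3% with Gm11407 over 1058. In level per kb of annotated length, the 5 genes with over 97% shared windows lay at 0.786 to 12.7 CPM per kb in DN, and the 7 other protein-coding genes apart from mt-Atp8 at 68.5 to 2835 CPM per kb. The sources used here do not give the read length or the handling of reads with several matches, and the part of the copies in the low counts was not tested. The 7 pseudogenes themselves held 3 to 6 counts together per DN library and 6 to 8 per DP library, so the rows of the copies were nearly empty as well.

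**Figure D1:**
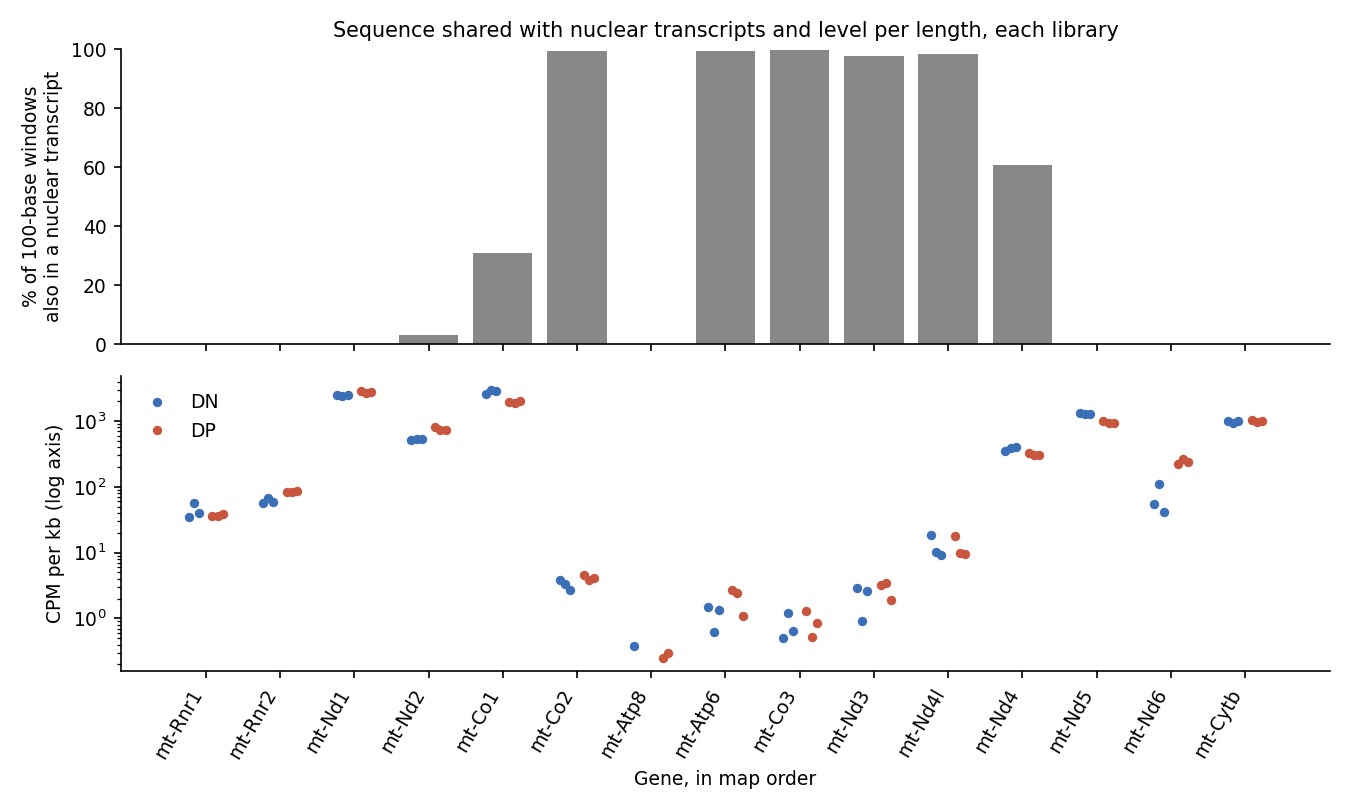
Upper panel: percentage of 100-base windows of each protein-coding and rRNA gene that are also found in an annotated nuclear transcript. Lower panel: level of the same genes in CPM per kb of annotated length on a log axis, 1 point per library, with libraries at 0 for mt-Atp8 left out. mt-Co2, mt-Atp6, mt-Co3, mt-Nd3 and mt-Nd4l combine over 97% shared windows with the low levels, and mt-Atp8 is low with no shared window among annotated transcripts.

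mt-Atp8, a subunit gene of ATP synthase, was the exception. It had 1, 0 and 0 counts in DN and 0, 1 and 1 in DP although no 100-base window of it is in an annotated nuclear transcript. Between the copies of mt-Co2 and mt-Atp6 on chromosome 1 lie 233 bases with no annotated gene, and the mitochondrial stretch between the same points, which holds most of mt-Atp8, is 233 bases long as well. The sequence of that nuclear interval was not analysed here. The last 43 bases of mt-Atp8 also belong to mt-Atp6, which is read in another frame, and they are shown in capitals in the end of the gene (chrM:7917-7969, plus strand), because reads inside such an overlap cannot be given to 1 gene.
mt-Atp8: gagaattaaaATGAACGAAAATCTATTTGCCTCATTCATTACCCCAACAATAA

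As a share of all gene counts, mitochondrial transcripts were lower in DP. DN libraries held 1.201%, 1.25% and 1.24% and DP libraries 0.959%, 0.915% and 0.949%, so that the groups did not overlap and DP stood at 0.765 times the DN mean. The 13 protein-coding rows made up nearly all of this, with 1.21% ± 0.0239 in DN and 0.924% ± 0.0228 in DP. The rRNA rows took 0.0149% ± 0.00207 and 0.0157% ± 4.32e-04, and these ranges overlapped. The tRNA rows took 2.03e-04% ± 1.48e-04 in DN and 6.43e-04% ± 6.45e-05 in DP, from 8 to 33 counts per DN library and 114 to 128 per DP library, without overlap. Most of these counts belonged to mt-Tp, with 288 over all libraries, and mt-Tq, with 69, while 15 of the 22 tRNAs had none. The shares above use raw totals. TMM factors raise DP levels relative to DN, and on that scale the genes divided into some that rose and others that fell. They divided with library totals alone too, where 5 of the tested mitochondrial genes were called higher and 4 lower. With those totals 8645 of all 11296 tested genes were called. In bulk RNA, fewer cells rich in mitochondrial RNA and less such RNA per cell cannot be told apart.

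The mitochondrial share was lower in DP, and so was the summed level of every marker list, including the germinal centre list given above. The lists differed in the size of this difference. The share of the rows that name no gene was lower as well. The 8 erythroid markers found had a summed level of 79.9 to 89.2 CPM in DN and of 19.96 to 22.05 CPM in DP. All 7 tested were called lower in DP, against 37.6% of all tested genes, with a median log2 change of -2.11. The 12 macrophage and monocyte markers summed to 33.3 to 37.1 CPM and 15.8 to 19.3 CPM, with Vsig4 at 0 in all libraries. Of 9 tested, 8 were called lower in DP and 1 higher, with a median log2 change of -0.98. The 7 T cell markers summed to 2.83 to 4.61 CPM and 1.45 to 1.78 CPM, without overlap, and of 2 tested 1 was called lower and 1 was not called. The 6 plasma cell markers summed to 399 to 409 CPM and 365 to 376 CPM, but 4 of the 5 tested were called higher in DP and 1, Jchain, lower, with a median log2 change of 1.47. Reads outside annotated genes were 6.88% ± 0.355 of all listed counts in DN and 4.13% ± 0.104 in DP, and reads without a unique position 3.73% ± 0.0355 and 3.39% ± 0.0189. Their part in the mitochondrial values was not tested.

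**Figure D2:**
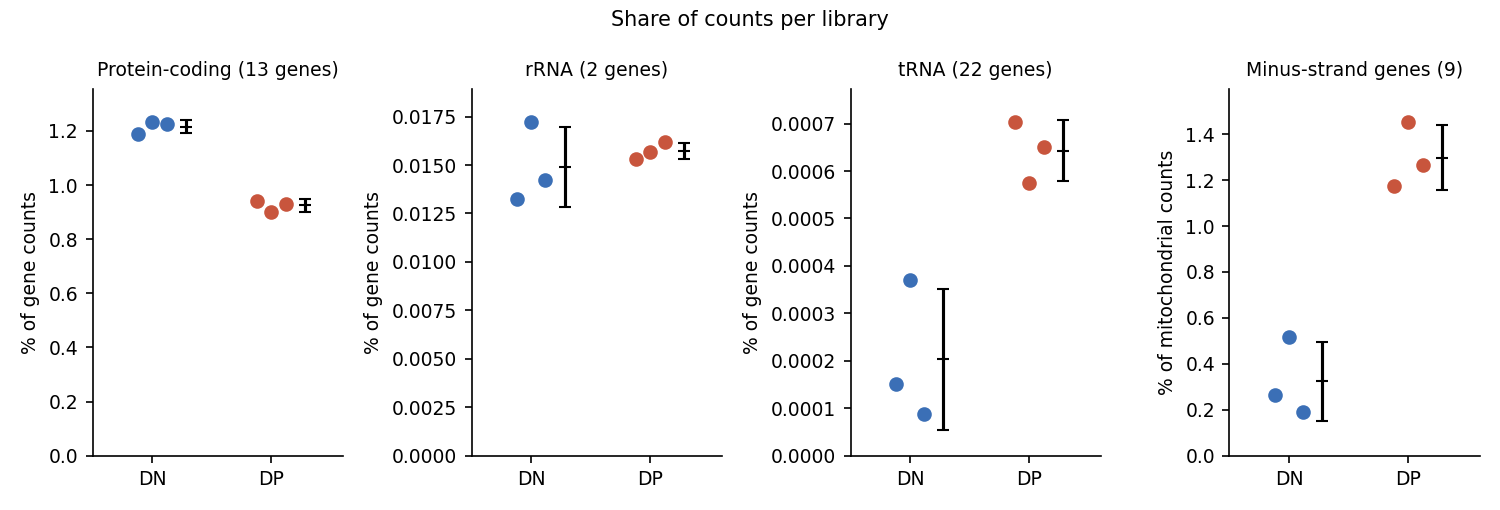
Share of counts per library (points), with mean and SD of the 3 libraries of a group beside them. The first 3 panels give protein-coding, rRNA and tRNA rows as a percentage of all gene counts, and the last gives minus-strand genes as a percentage of mitochondrial counts. Protein-coding shares are lower in every DP library, tRNA and minus-strand shares are higher in every DP library, and rRNA shares overlap.

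Of the 37 genes, 15 passed the filter on low counts. They were 11 protein-coding genes, both rRNAs and the tRNAs mt-Tq and mt-Tp. Of these 15, 7 were called higher in DP and 3 lower. Among all genes tested 75.9% were called, 38.3% higher and 37.6% lower, so that calls were no rarer elsewhere. The groups did not overlap in CPM for 6 of the 15 with DP higher and for 3 with DP lower, against 39% and 38% of all tested genes (77% in either direction). The median log2 change of the 15 was 0.32, against 0.01 over all tested genes. The filter required its level in 3 libraries. mt-Tq reached it in all DP libraries but only 1 DN library, and mt-Tp and mt-Atp6 in all DP libraries but only 2 DN libraries, so these 3 passed through DP, where they were high. Their calls are therefore a description of genes the filter favoured in that direction, and the count of 7 and the median of 0.32 include them. The 22 other genes were mt-Atp8, mt-Co3 and 20 tRNAs. With a stricter filter on low counts, which mt-Tp still passed, the median was 0.067, against 0.012 over all genes then tested.

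**Figure D3:**
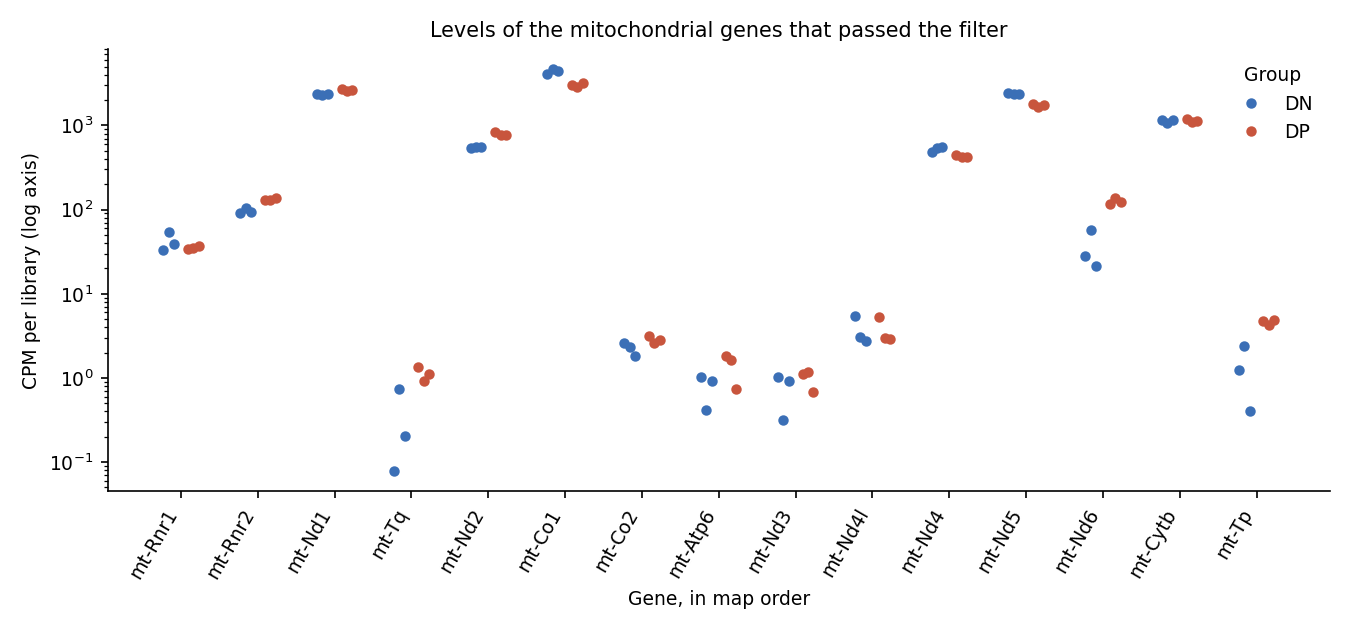
CPM of the 15 mitochondrial genes that passed the filter, 1 point per library, on a log axis, in their order along the genome. Levels span from 0.0785 CPM for mt-Tq to 4646 CPM for mt-Co1. The minus-strand genes mt-Tq, mt-Nd6 and mt-Tp show the largest fold differences between the group means. The points of mt-Tq come close, with the highest DN library at 0.734 CPM and the lowest DP library at 0.931 CPM.

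Among the 15 genes that passed the filter, the largest rises were in the minus-strand genes mt-Nd6, mt-Tq and mt-Tp. Of these, mt-Tq and mt-Tp passed it through DP. mt-Nd6 (ENSMUSG00000064368.1, chrM 13552 to 14070), a membrane subunit of complex I, was at 28.3, 56.9 and 21.4 CPM in DN and at 115, 136 and 122 CPM in DP. All DP libraries lay above all DN libraries, and DN replicate 2 was the highest of its group. The change was 1.83 ± 0.33 (adjusted p = 0.00658), a 3.56-fold higher level in DP, and 2.31 without DN replicate 2. In human cells the ND6 mRNA is known for lacking a stable poly(A) tail, unlike the other mitochondrial mRNAs.

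Transfer RNA genes with counts followed the same direction. mt-Tp, the proline tRNA on the minus strand, had 16, 23 and 4 counts in DN and 81, 83 and 81 in DP, which is 1.26, 2.41 and 0.410 CPM against 4.80, 4.29 and 4.94 CPM. The groups did not overlap, and the change was 1.79 ± 0.26 (adjusted p = 3.73e-08), or 2.39 without DN replicate 2. mt-Tq, the glutamine tRNA, also on the minus strand, had 1, 7 and 2 counts in DN and 23, 18 and 18 in DP (1.81 ± 0.48, adjusted p = 6.22e-04). Its change was 3.00 without DN replicate 2 and 1.26 without DN replicate 1, so that its size rests on few DN counts. Below the filter, the plus-strand tRNAs mt-Tt for threonine and mt-Tw for tryptophan had 0, 1 and 0 against 5, 8 and 10 counts and 1, 1 and 2 against 15, 5 and 5 counts. In a fit without filter, where 22.6% of 21738 genes were called higher in DP, both passed, with fitted changes of 3.54 ± 1.05 for mt-Tt and 1.93 ± 0.77 for mt-Tw (adjusted p = 0.00217 and 0.0292). In that fit mt-Nd6, mt-Tq and mt-Tp changed by 1.91, 1.89 and 1.86, so that the plus-strand mt-Tt had a larger fitted change than these minus-strand genes. It rests on 1 DN count, and its summed level in DP was 14.0 times that in DN, with an exact 95% interval of 2.27 to 577 for counting error only. The remaining tRNAs with any count were mt-Ta with 6 over all libraries, mt-Ty with 2 and mt-Tl1 with 1, and 15 tRNAs had 0 in all 6 libraries. A count of 0 allows up to 0.315 CPM in the shallowest library. The 4 tRNAs with the most counts, written as DNA with the anticodon in capitals, are the following.
mt-Tp: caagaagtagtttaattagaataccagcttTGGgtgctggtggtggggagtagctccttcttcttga
mt-Tq: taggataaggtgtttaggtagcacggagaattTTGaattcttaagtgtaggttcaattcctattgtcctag
mt-Tw: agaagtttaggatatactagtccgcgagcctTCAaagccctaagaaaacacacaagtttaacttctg
mt-Tt: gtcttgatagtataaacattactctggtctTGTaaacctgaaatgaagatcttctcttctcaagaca

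Minus-strand genes took 0.265%, 0.516% and 0.190% of the mitochondrial counts in the DN libraries and 1.18%, 1.45% and 1.26% in the DP libraries. The DP mean was 4.01 times the DN mean, and most of these counts belonged to mt-Nd6. At its end mt-Nd6 overlaps mt-Nd5 on the other strand by 14 bases, shown in capitals for both genes (chrM:13526-13565 for mt-Nd5 and chrM:13552-13591 for mt-Nd6). The 2 overlapping genes changed in opposite directions. As annotated, the 2 genes share only these 14 bases. The sources used here do not give the strand setting of the counting. Had strand been ignored, opposite-strand reads anywhere over a minus-strand gene such as mt-Nd6 would count for it as well. This was not tested.
mt-Nd5: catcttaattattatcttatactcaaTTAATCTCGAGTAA
mt-Nd6: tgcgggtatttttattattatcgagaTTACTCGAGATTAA

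Complex I genes of the plus strand moved both ways. mt-Nd2 was at 544, 554 and 555 CPM in DN and 836, 763 and 769 CPM in DP, with no overlap (0.52 ± 0.04, adjusted p = 9.18e-20). mt-Nd1, which lies next to the rRNA genes, was at 2352, 2271 and 2357 CPM in DN and 2707, 2542 and 2609.6 CPM in DP. Its rise was small (0.17 ± 0.03, adjusted p = 8.75e-06), and with library totals alone it was -0.025 and not called. mt-Nd5 fell from 2449, 2343 and 2369 CPM to 1822, 1679 and 1727 CPM (-0.45 ± 0.03, adjusted p = 2.92e-18). mt-Nd4 fell from 489, 542 and 557 CPM to 449.9, 419 and 425 CPM (-0.29 ± 0.04, adjusted p = 3.76e-09), but by only 0.12 with trends in GC content and transcript length removed (adjusted p = 0.163). mt-Nd3 and mt-Nd4l, which share nearly all of their sequence with nuclear copies, were at 0.753 ± 0.382 and 3.77 ± 1.502 CPM in DN and 0.996 ± 0.283 and 3.70 ± 1.37 CPM in DP, overlapped between groups and were not called (0.37 ± 0.39, adjusted p = 0.388, and -0.09 ± 0.26, adjusted p = 0.774). With trends in GC content and length removed mt-Nd3 was called higher in DP (0.91, adjusted p = 0.0264).

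mt-Co1, the catalytic subunit of complex IV, was the gene with the largest fall. It was at 4057, 4646 and 4437 CPM in DN and at 3046, 2903 and 3156 CPM in DP, so that every DP library lay below every DN library. The change was -0.53 ± 0.04 (adjusted p = 1.68e-16), which puts DP at 0.693 times DN. mt-Co2, the subunit that takes electrons from cytochrome c, was at 2.59, 2.31 and 1.85 CPM in DN and 3.14, 2.59 and 2.81 CPM in DP (0.32 ± 0.23, adjusted p = 0.200), and the groups overlapped. mt-Co3 had 5 to 9 counts per DN library and 8 to 17 per DP library and did not pass the filter.

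mt-Cytb, the only mitochondrially encoded subunit of complex III, was at 1161, 1082 and 1153 CPM in DN and 1192, 1101 and 1138 CPM in DP. The groups overlapped and the change was 0.01 ± 0.04 (adjusted p = 0.720). The alternatives called it in both directions. With library totals alone it was -0.18 (adjusted p = 3.34e-06), without a filter 0.09 (adjusted p = 0.0230), and with trends in GC content and length removed 0.07 (adjusted p = 0.0306). mt-Atp6, the proton channel subunit of ATP synthase, had 13, 4 and 9 counts in DN and 31, 32 and 12 in DP, with overlapping CPM. Its change of 0.81 ± 0.37 was just inside the threshold (adjusted p = 0.0423) and was lost under 8 of 17 alternatives, among them leaving out either DN replicate 2 (0.55, adjusted p = 0.199) or DN replicate 3 (0.90, adjusted p = 0.0616) and either DP replicate 1 (0.60, adjusted p = 0.183) or DP replicate 2 (0.67, adjusted p = 0.139).

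The 2 rRNAs are neighbours on the plus strand and behaved differently. mt-Rnr2, the large subunit rRNA, was at 90.6, 106 and 94.1 CPM in DN and 131, 132 and 136 CPM in DP, with no overlap (0.46 ± 0.05, adjusted p = 2.90e-13). mt-Rnr1, the small subunit rRNA, was at 33.1, 54.7 and 38.7 CPM in DN and 34.1, 34.7 and 37.3 CPM in DP. These overlapped, and DN replicate 2 was the highest of all 6 (-0.23 ± 0.20, adjusted p = 0.349). Without DN replicate 1 mt-Rnr1 was called lower in DP (-0.40, adjusted p = 8.63e-06), and without DN replicate 2 its change was -0.0056. Without robust weights it was also called on all 6 libraries (-0.23, adjusted p = 0.0213). DN replicate 2, the library with the fewest gene counts, was the highest DN library for both rRNAs, mt-Nd6, mt-Tp and mt-Tq.

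**Figure D4:**
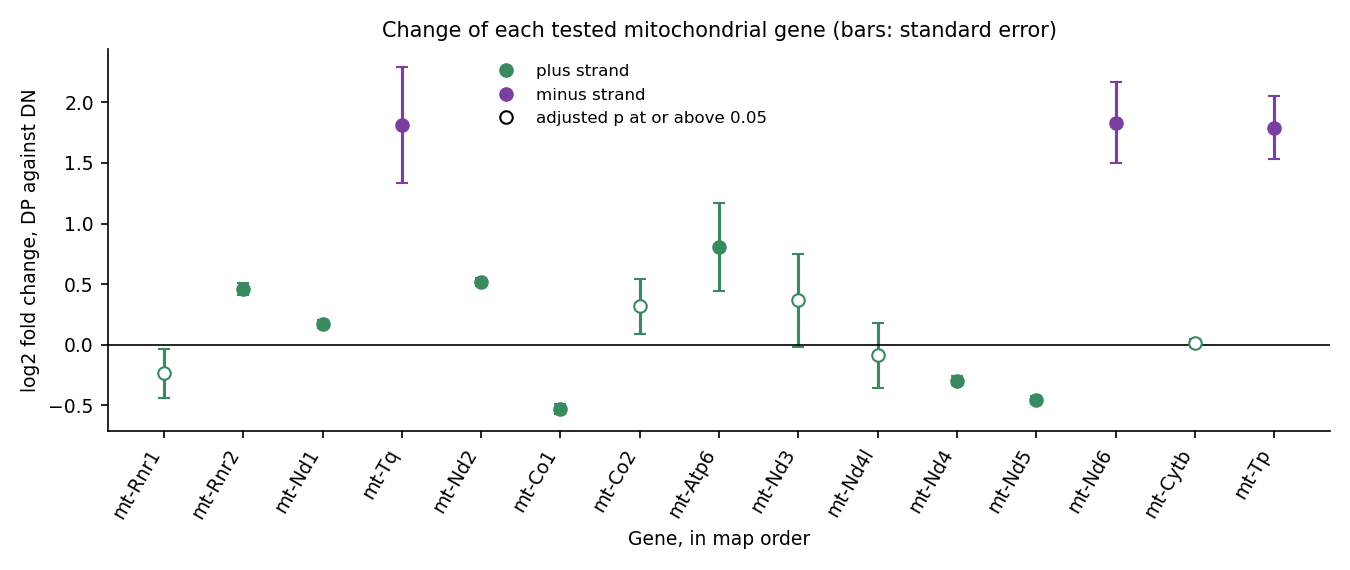
log2 fold change of DP against DN for the 15 tested mitochondrial genes, in their order along the genome, with the standard error as bars. Green marks plus-strand genes, purple minus-strand genes, and open points have an adjusted p of 0.05 or more. The 3 minus-strand genes lie between 1.79 and 1.83, while the plus-strand genes shown lie between -0.53 and 0.81. Of the minus-strand genes, mt-Tq and mt-Tp passed the filter through DP. The plus-strand tRNAs mt-Tt and mt-Tw did not pass it and are not shown. In a fit without filter they changed by 3.54 and 1.93.

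Shares within the mitochondrial counts need no scaling to nuclear genes. mt-Co1 took 38.1% ± 1.83 of them in DN and 30.1% ± 0.896 in DP, and mt-Nd5 20.8% ± 0.924 and 17.3% ± 0.280. mt-Nd1 took 20.3% ± 0.753 and 26.0% ± 0.229, mt-Nd2 4.80% ± 0.0522 and 7.83% ± 0.241, and mt-Cytb 9.86% ± 0.546 and 11.4% ± 0.148. mt-Nd4 took 4.60% ± 0.228 and 4.28% ± 0.0780. mt-Nd6 rose from 0.309% ± 0.159 to 1.24% ± 0.143 and mt-Rnr2 from 0.843% ± 0.0566 to 1.32% ± 0.0446. For each of these 8 genes the groups did not overlap (exact two-sided permutation p = 0.1, which is as low as 3 against 3 libraries allow, so that none could pass 0.05). The shares of mt-Co2, mt-Tq, mt-Tp, mt-Tt and mt-Tw did not overlap either, and those of the other genes with counts did. Shares of a whole are bound together, so that lower shares of mt-Co1 and mt-Nd5 raise those of other genes. The share of mt-Cytb was higher in DP although its change in CPM was not called. mt-Rnr1 took 0.366% ± 0.0912 and 0.352% ± 0.0199, which overlapped (exact two-sided permutation p = 0.9).

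Levels can be compared between genes only per length. Here the length is the number of 100-base windows that no annotated nuclear transcript shares. All counts of a gene were divided by it, which presumes that reads from shared stretches were not counted. That was not tested. In DN the order on this CPM per kb scale was mt-Co1 at 4380.0 ± 299, mt-Nd1 at 2712 ± 56.0, mt-Nd5 at 1384 ± 31.9, mt-Cytb at 1083 ± 41.9, mt-Nd4 at 1054 ± 71.7 and mt-Nd2 at 606 ± 6.66. mt-Cytb and mt-Nd4 did not differ beyond their spread. In DP mt-Nd1 at 3053 ± 96.3 and mt-Co1 at 3035 ± 127 did not differ beyond their spread. They were followed by mt-Cytb at 1095 ± 43.9, mt-Nd5 at 1010.4 ± 42.2, mt-Nd2 at 868 ± 44.4 and mt-Nd4 at 859 ± 32.7. The ranges of mt-Cytb and mt-Nd5 overlapped, although mt-Cytb was above mt-Nd5 within each DP library. With windows of 50 bases their DP means were 1045 and 1063, in the other order. mt-Nd2 and mt-Nd4 did not differ beyond their spread. mt-Nd6 stood at 84.7 ± 44.8 in DN and 296 ± 24.6 in DP, mt-Rnr2 at 65.3 ± 5.41 and 89.6 ± 1.61, and mt-Rnr1 at 49.3 ± 13.1 and 41.4 ± 2.00. With windows of 50 bases mt-Co1 rose to 5992 and 4152 on this scale and stood above mt-Nd1 at 2562 and 2885 in both groups, because other nuclear transcripts share shorter stretches of it. With windows of 150 bases mt-Nd1 stood at 3242 ± 102 and mt-Co1 at 2847 ± 119 in DP, and on full annotated length at 2737 ± 86.3 and 1964 ± 82.1, so that their order in DP depends on the length used. In DN mt-Co1 was above mt-Nd1 on all 4 scales. On full annotated length mt-Nd4 was at 384 ± 26.1 in DN and 313 ± 11.9 in DP, below mt-Nd2 in both groups.

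Most tested nuclear genes that process, modify and translate mitochondrial RNA were called higher in DP. The counts for each list below stand against 38.3% higher and 37.6% lower, with a median of 0.01, over all tested genes. Of 18 tested genes of DNA maintenance and transcription, 7 rose and 5 fell, near the 38.3% and 37.6% of all tested genes, and the median change was 0.13. Polrmt, the mitochondrial RNA polymerase, rose from 18.8 ± 1.75 to 30.9 ± 1.70 CPM (0.72 ± 0.08, adjusted p = 7.99e-12). Tfam, which packages the genome and starts transcription, was at 115 ± 2.75 and 115 ± 3.20 CPM (0.01 ± 0.04, adjusted p = 0.908). The replicative helicase gene Twnk rose from 16.2 ± 2.10 to 87.6 ± 5.07 CPM (2.43 ± 0.07), the mitochondrial topoisomerase gene Top1mt by 3.09 ± 0.11 and the single-strand binding protein gene Ssbp1 by 0.70 ± 0.05. Rrm2b, a p53-induced ribonucleotide reductase subunit that supplies nucleotides outside S phase, fell from 155 ± 7.16 to 41.6 ± 3.79 CPM (-1.91 ± 0.05).

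Of 23 tested genes of RNA processing, tailing and decay, 20 rose and 1 fell, against 38.3% and 37.6% of all tested genes, and the median change was 0.82. Elac2, the nuclease that trims the 3′ ends of tRNAs, rose from 34.7 ± 0.512 to 121 ± 2.21 CPM (1.80 ± 0.05). Lrpprc, which protects mitochondrial mRNAs and promotes their polyadenylation, rose from 68.4 ± 0.6004 to 175 ± 2.44 CPM (1.35 ± 0.05), and its partner Slirp from 6.92 ± 0.637 to 10.97 ± 0.357 CPM (0.66 ± 0.12). The mitochondrial poly(A) polymerase gene Mtpap rose by 0.50 ± 0.10. Among genes of RNA decay, the helicase gene Supv3l1 rose by 1.55 ± 0.07, its exonuclease partner Pnpt1 by 0.43 ± 0.05 and the oligonucleotide-degrading Rexo2 by 1.12 ± 0.05. The gene that fell was Angel2 (-0.36, adjusted p = 5.4e-05), named after its value was seen.

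Of 24 tested genes of RNA modification, 15 rose and 1 fell, against 38.3% and 37.6% of all tested genes, and the median change was 0.59. The RNA methyltransferase gene Nsun2 (2.03 ± 0.04) and the pseudouridine synthase gene Pus1 (2.05 ± 0.07), which also act outside mitochondria, had the smallest p-values, followed by the rRNA methyltransferase gene Mrm3 (1.77 ± 0.11) and the demethylase gene Alkbh1 (0.96 ± 0.06). Of 23 tested translation factors and mitoribosome assembly factors, 17 rose and 3 fell, against the same shares, and the median change was 0.55. The elongation factor genes Gfm1 (1.15 ± 0.04), Tufm (1.14 ± 0.04) and Tsfm (1.30 ± 0.08) and the GTPase gene Noa1 (1.46 ± 0.07) rose.

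Nuclear genes also encode the partners of the mitochondrially encoded subunits. Of 36 tested nuclear genes of complex I, 18 rose and 5 fell (median change 0.21), against 38.3% and 37.6% of all tested genes. Ndufa12 (1.19 ± 0.05) and Ndufa10 (0.68 ± 0.04) had the smallest p-values of this set. In complex III 8 of 9 rose and 1 was not called (median 0.44). In complex IV 7 of 11 rose and 1 fell (median 0.22), and in ATP synthase 11 of 16 rose and 1 fell (median 0.35). Uqcr11 (1.12 ± 0.06), Cox5b (0.45 ± 0.04) and Atp5b (0.72 ± 0.03) had the smallest p-values of complexes III and IV and ATP synthase. Beside them, mt-Co1 of complex IV fell and mt-Cytb of complex III was not called. The scaling bears on these counts. With library totals alone the medians were 0.018 for complex I and 0.020 for complex IV, and 12 complex I genes were called lower.

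**Figure D5:**
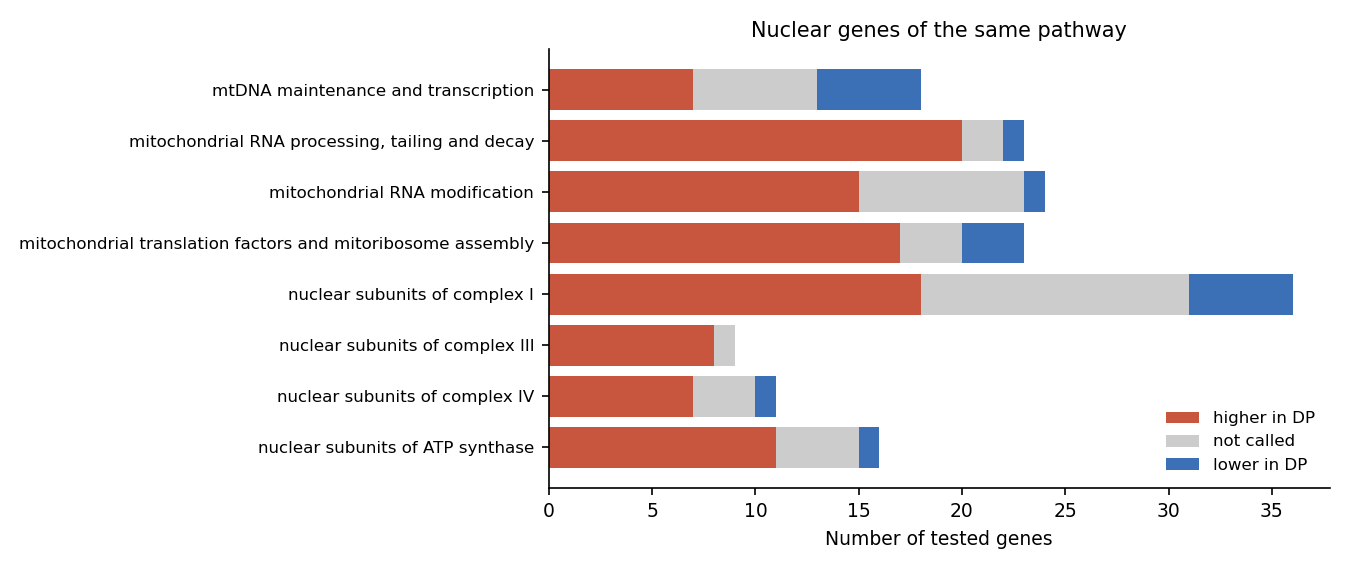
Number of tested nuclear genes called higher in DP, not called, and called lower in DP for 4 lists of mitochondrial gene expression and 4 lists of nuclear respiratory chain subunits. RNA processing has 20 of 23 genes higher in DP, while DNA maintenance and transcription has 7 higher and 5 lower.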

How the data were processed

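RNA sequencing of 6 libraries, 3 DN and 3 DP by their titles, was analysed from read counts per gene, deposited without normalization as 1 table per library. HTSeq 0.13.5, STAR 2.7.10a, Trim Galore 0.6.6 and the mm10 build are named, without roles or settings, per the submitters' processing notes. The sources used here do not give the annotation, the strand setting or the treatment of reads with several matches. The 5 summary rows that name no gene (12.6% of listed counts in DN, 9.56% in DP) were left out.

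DP was compared with DN in edgeR 4.0.16 (R 4.3.3) with TMM factors, filterByExpr (minimum count 10), robust quasi-likelihood fits and no block. Standard errors were taken from the log2 change and its F statistic. Libraries of a group differed by more than sampling noise (chi-square per degree of freedom 1.96 to 3.26 within groups) and all were kept. The script was tested on simulated counts. GENCODE M21 gave types, positions and transcripts, and blastn found nuclear transcripts akin to mitochondrial ones, whose windows of 50, 100 and 150 bases were then compared exactly on both strands. No genome sequence was used.

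The genes and lists were chosen with earlier results of these data known. Named were all mitochondrial genes, up to 4 genes of each nuclear list with the smallest p, and 7 set genes (Polrmt, Tfam, Lrpprc, Slirp, Mtpap, Pnpt1 and Supv3l1). Of the nuclear copies, the 7 pseudogenes on chromosome 1 were named with their counts. Counts of other similar nuclear transcripts were not looked at. Alternatives were other scalings, filters (minimum count 50 or none), DESeq2 1.42.0, limma-voom (limma 3.58.1), no robust weights, a replicate block and each library left out. Trends with GC content and length were removed after the data were seen.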

Additional observations from a re-analysis of the deposited data

How the results depend on the processing

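Over 18 alternatives, 5 to 9 of the tested mitochondrial genes were called higher in DP and 2 to 4 lower, with medians of 0.07 to 0.49; leaving out 1 library gave 6 to 7, 3 to 4 and 0.16 to 0.41. mt-Rnr2, mt-Nd2, mt-Co1, mt-Nd5, mt-Nd6 and mt-Tp kept direction and call under all 18, and mt-Tq under its 17. Library totals alone moved the median of all genes to -0.19 and reversed mt-Nd1 (-0.025) and mt-Cytb (-0.18); mt-Cytb also reversed with upper-quartile factors (-0.019) and the stricter filter (-0.011). With GC and length trends removed mt-Nd4l reversed (0.21, and 0.27 with the replicate block). Without 1 library mt-Cytb ranged from -0.010 to 0.048 and mt-Nd4l from -0.41 to 0.34. Apart from changes that the scaling makes by its construction, the cause was not tested.

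With library totals alone the medians were -0.065 for DNA maintenance and transcription, 0.62 for RNA processing, 0.40 for RNA modification, 0.35 for translation factors, 0.018 for complex I, 0.24 for complex III, 0.020 for complex IV and 0.15 for ATP synthase. The called lower were then 4 in RNA modification, 12 in complex I, 1 in complex III, 2 in complex IV and 4 in ATP synthase, and 4 of complex IV were called higher. Leaving out 1 library gave 1 to 2 lower and medians of 0.45 to 0.69 for RNA modification, 2 to 6 lower and 0.21 to 0.27 for complex I, and 0 to 1 lower for complex III. The DP minus DN share of mitochondrial rows was -0.224 percentage points, and of protein-coding rows -0.226, with summary rows in the denominator.

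With the replicate number as a block, 7 mitochondrial genes were higher and 3 lower, with a median of 0.34, and none of the 15 calls changed. Same-numbered libraries showed little shared variation (correlations of 0.0562, -0.00611 and -0.0182). The labels do not say which mouse a library came from, and these values cannot settle it. The low counts of mt-Atp8, mt-Co3, mt-Atp6, mt-Nd3 and the tRNAs limit what can be said of them.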
